A study of Homo sapiens with 4 samples.

Results

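AXL and the TAM receptor axis comprised 5 genes, the receptor genes AXL, TYRO3 and MERTK and the ligand genes GAS6 and PROS1. They were chosen by name, with earlier results of these data known, from 18239 genes on the arrays. To them belonged 10 of 45253 probe sets with 1 gene symbol. Expression was measured in 2 arrays of MTAC-P and 2 arrays of PC9. MTAC-P is, per the labels, a resistant human lung cancer line obtained by mild tyrosine kinase inhibitor (TKI) exposure. PC9 is a human lung adenocarcinoma line that carries an activating EGFR mutation. Both lines were grown in DMEM with serum. The labels name no inhibitor, dose, parent line or clone for MTAC-P, and do not say whether drug was present at collection. Values are log2 expression values, so a difference of 1 is a 2-fold difference, and all differences are MTAC-P minus PC9.

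TAM receptors are receptor tyrosine kinases with immunoglobulin-like and fibronectin domains outside the cell. Their ligands, GAS6 and protein S (encoded by PROS1), are vitamin K-dependent proteins that bridge the receptors to phosphatidylserine on dying cells, and GAS6 binds AXL with the highest affinity of the receptors. In lung cancers driven by EGFR, AXL is known as a receptor that can carry survival signals when EGFR is inhibited.

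AXL and GAS6 had higher means in MTAC-P on both of their probe sets, TYRO3 differed in direction between its probe sets, and MERTK and PROS1 lay at the bottom of the scale in both lines. No member passed limma's test adjusted over all genes, in which MERTK and PROS1 were too dim to be included. Of the 5, 3 had a mean above the level of 4.14 used to leave out dim genes, the 25th percentile of all probe sets, and were tested among 14970 genes. Of these 3, 0 had an adjusted p under 0.05, where 3 of all tested genes (0.02%) did, and 2, both higher in MTAC-P, had an unadjusted p under 0.05, as did 18.9% of all tested genes, with 7.76% higher. Nothing in the labels tells whether duplicate arrays stem from separate cultures, so the spread behind every p may be technical.

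**Figure D1:**
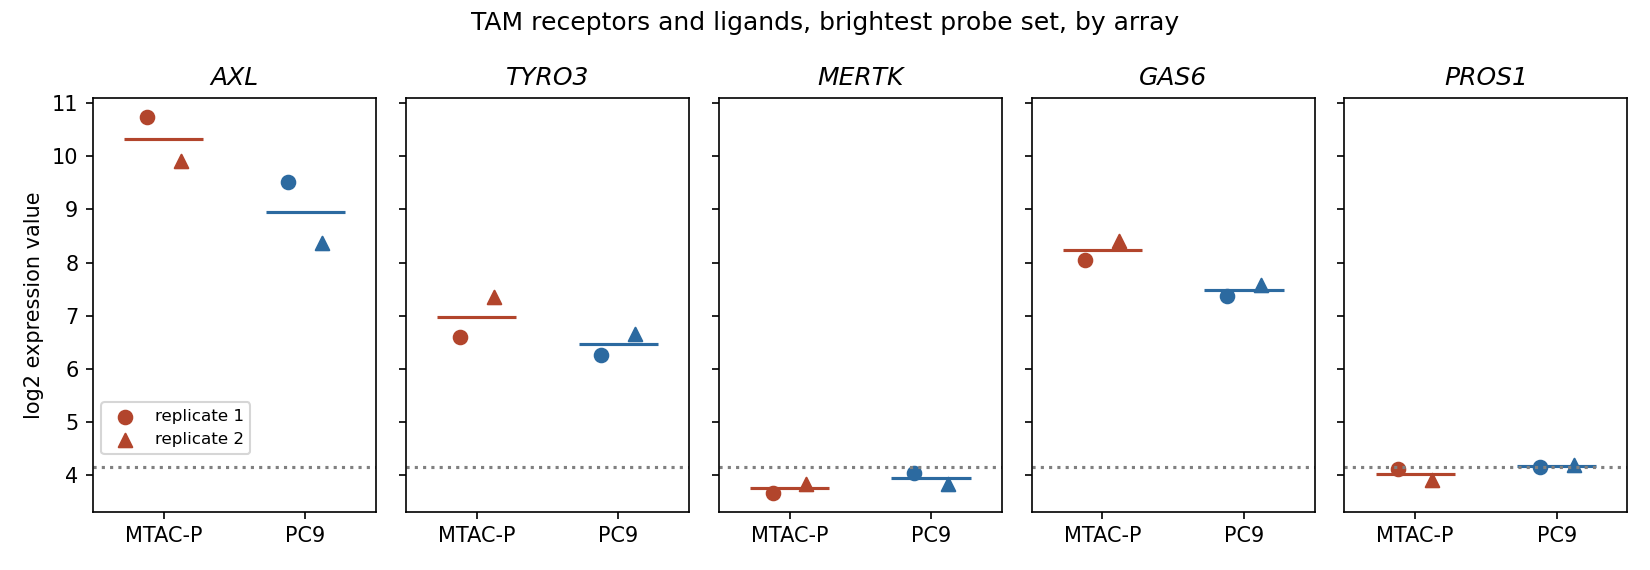
Log2 expression value (vertical axis) of each TAM gene's brightest probe set on the MTAC-P arrays (red, left) and the PC9 arrays (blue, right), with replicate 1 as circles, replicate 2 as triangles and the mean of 2 arrays as a bar; the dotted line is the level of 4.14 under which genes were not tested, and levels of different genes come from different probes and cannot be compared. Both MTAC-P arrays lie above both PC9 arrays for AXL and GAS6, the arrays of TYRO3 overlap, and MERTK and PROS1 lie near the dotted line.

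The epithelial identity of both lines was checked on markers. All 6 epithelial genes were above the dim level, and the log2 of their summed signal was 15.91 and 15.92 in MTAC-P and 15.89 and 15.89 in PC9, a sum to which the keratin genes gave most. In MTAC-P 4 of the 6 had lower means and 2 had higher ones, and 0 passed limma's adjusted test. The lower ones included the epithelial adhesion genes CDH1 at -0.54 and EPCAM at -0.49 (-0.29 without MTAC-P replicate 2). Each had an unadjusted p under 0.05, as did 18.9% of all tested genes. Each lay below PC9 without overlap, as did 23.3% of all genes. KRT8 at 0.36 and KRT18 at 0.12 lay above PC9 without overlap, as did 27.1% of all genes. KRT19 at -0.064 and KRT7 at -0.024 overlapped. Macrophages, endothelial cells and fibroblasts also carry TAM receptors or GAS6, so their markers were examined too. The 5 measured macrophage and leukocyte genes had means over the 4 arrays of at most 5.64, with a summed signal of 7.10 and 7.02 in MTAC-P and 6.90 and 7.18 in PC9, and PTPRC, the general leukocyte marker, lay below the dim level. The 4 endothelial genes had means over the 4 arrays of at most 5.34, with sums of 6.44 and 7.06 in MTAC-P and 6.88 and 7.00 in PC9. The 5 fibroblast genes had means over the 4 arrays of at most 4.27, with sums of 6.38 and 6.37 in MTAC-P and 6.42 and 6.43 in PC9, and COL3A1 and LUM lay below the dim level. Array medians over all probe sets ran from 4.87 to 4.88 in MTAC-P and from 4.85 to 4.87 in PC9.

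AXL, on its brightest probe set (11716587_at), had log2 values of 10.74 and 9.91 in MTAC-P, against 9.52 and 8.38 in PC9. Both MTAC-P arrays lay above both PC9 arrays, the lowest MTAC-P value standing 0.39 above the highest PC9 value and the highest MTAC-P value 2.37 above the lowest PC9 value. The means were 10.33 ± 0.59 in MTAC-P and 8.95 ± 0.81 in PC9 (SD, n = 2 each), a 2.60-fold difference. The log2 difference of AXL was 1.38 (SE 0.42, 95% interval 0.35 to 2.40, limma unadjusted p = 0.0161, adjusted p = 0.175). Only 19 of the 14970 tested genes, AXL included, had a difference as high in this direction, and 0.401% of tested genes were at least 2-fold higher in MTAC-P. By p AXL ranked 1372, and its duplicates lay far apart. The PC9 duplicates of AXL differed by 1.15, a gap reached by 0.862% of tested genes, against a median gap of 0.17. Its MTAC-P duplicates differed by 0.83, a gap reached by 2.79% of genes, against a median gap of 0.21. In both lines replicate 1 was the higher. In bulk RNA a smaller share of cells with AXL RNA and less AXL RNA per cell cannot be told apart. Without PC9 replicate 2 the difference of AXL was 0.80, and with each other array left out in turn it lay between 0.96 and 1.95.

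The second probe set of AXL (11716586_a_at) had values of 7.07 and 6.82 in MTAC-P, against 6.28 and 5.33 in PC9. Again both MTAC-P arrays were above both PC9 arrays, and the lower PC9 value was that of replicate 2. The difference on this probe set was 1.14 (SE 0.30, limma adjusted p = 0.166 over all 45253 probe sets with 1 symbol), a 2.20-fold difference, and the mean of both probe sets differed by 1.26.

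**Figure D2:**
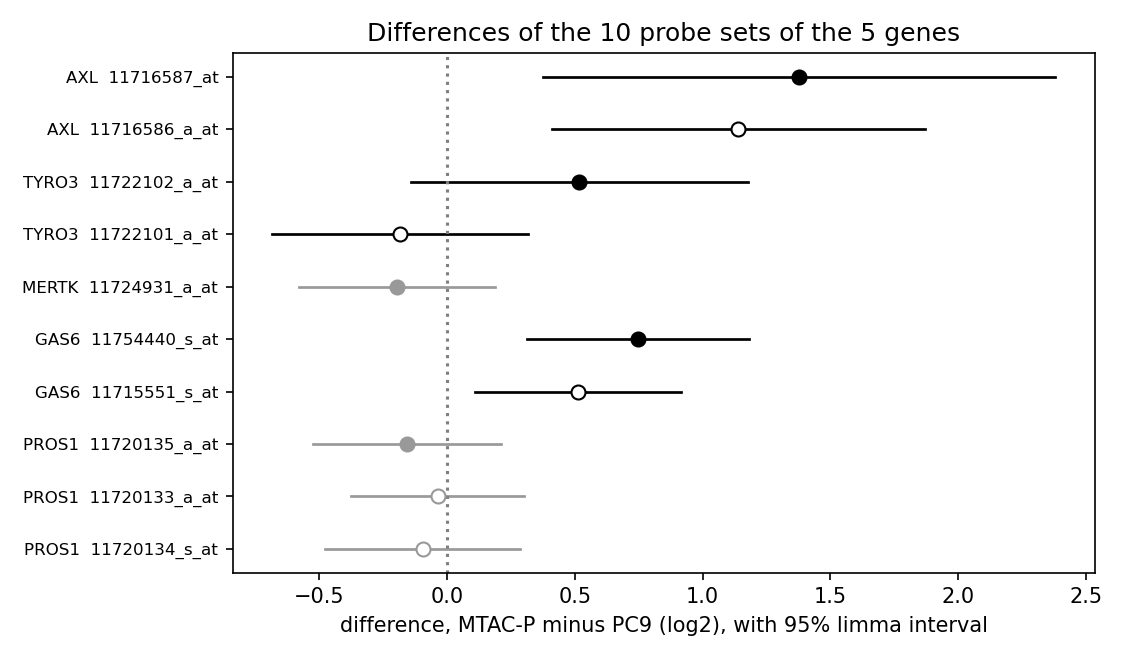
Difference MTAC-P minus PC9 (log2, horizontal axis) of each of the 10 probe sets, with 95% limma intervals from the fit to all probe sets; filled points are the brightest probe set of a gene, open points the others, and grey marks probe sets with a mean under 4.14. The intervals of both AXL and both GAS6 probe sets lie above 0, while those of TYRO3, MERTK and PROS1 include 0.

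TYRO3, the TAM receptor best known from the nervous system, had values of 6.60 and 7.36 in MTAC-P, against 6.27 and 6.66 in PC9 (11722102_a_at). The MTAC-P replicate 1 value lay inside the PC9 range, so the arrays of the lines overlapped. The log2 difference was 0.52 (SE 0.28, 95% interval -0.16 to 1.20, limma adjusted p = 0.366). It was 0.14 without MTAC-P replicate 2, 0.32 without PC9 replicate 1 and 0.90 without MTAC-P replicate 1, and 0.17 when both probe sets were averaged. The second probe set of TYRO3 (11722101_a_at), with a mean of 4.18 close to the dim level, had values of 3.84 and 4.34 in MTAC-P, against 4.16 and 4.39 in PC9. It differed by -0.18 (95% interval -0.69 to 0.32), opposite in sign to the brighter one.

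MERTK, the TAM receptor through which macrophages and retinal pigment cells engulf debris, was measured by 1 probe set (11724931_a_at). Its values were 3.66 and 3.83 in MTAC-P, against 4.04 and 3.84 in PC9. All of them lay under the dim level, and the 2 lines were separated by only the 0.0049 between their replicate 2 arrays. Background probe sets (those of 3 to 19 G or C) had a mean of 3.85 in MTAC-P and of 3.82 in PC9, so the MERTK signal was close to that of such probes in both lines. Background probe sets richer in G and C were brighter, at 5.18 and 5.32 in MTAC-P and 5.06 and 4.93 in PC9. The difference of MERTK was -0.20, with a 95% interval from -0.58 to 0.19 in the fit to all probe sets.

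GAS6, the ligand of all 3 receptors, had values of 8.05 and 8.40 in MTAC-P, against 7.37 and 7.59 in PC9 (11754440_s_at). Both MTAC-P arrays exceeded both PC9 arrays, and the lowest MTAC-P value stood 0.47 above the highest PC9 value. The means were 8.23 ± 0.25 in MTAC-P and 7.48 ± 0.15 in PC9 (SD, n = 2 each), a 1.68-fold difference. The log2 difference of GAS6 was 0.75 (SE 0.19, 95% interval 0.29 to 1.20, limma unadjusted p = 0.00661, adjusted p = 0.137). A difference as high in this direction was seen in 233 tested genes (1.56%). The duplicates of GAS6 lay 0.35 apart in MTAC-P, a gap that 27.6% of tested genes reached, and 0.21 apart in PC9, a gap that 40.5% reached, so each was wider than the median gap. Its difference lay between 0.57 and 0.92 whichever array was left out.

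The second probe set of GAS6 (11715551_s_at) had values of 7.09 and 7.41 in MTAC-P, against 6.76 and 6.71 in PC9. These arrays did not overlap either, and the difference was 0.51 (SE 0.17, limma adjusted p = 0.223 over all probe sets). GAS6-AS1, a noncoding gene antisense to GAS6 with probe sets of its own, stayed near the dim level, with differences of 0.095 and -0.032.

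PROS1, which encodes protein S, a ligand of TYRO3 and MERTK and an anticoagulant cofactor, was measured by 3 probe sets, each with a mean under the dim level. The brightest (11720135_a_at) had values of 4.12 and 3.90 in MTAC-P, against 4.15 and 4.19 in PC9. The MTAC-P arrays lay below the PC9 arrays, with a difference of -0.16. The other probe sets of PROS1 differed by -0.036 and -0.095, and all 3 intervals included 0. For MERTK and PROS1 no difference was detectable at these signals.

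Counted over the 5 genes, the brightest probe sets of 4 did not overlap between the lines, AXL and GAS6 above and MERTK and PROS1 below, where 50.4% of all 18239 genes did not overlap, 27.1% above and 23.3% below. TYRO3 overlapped.

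**Figure D3:**
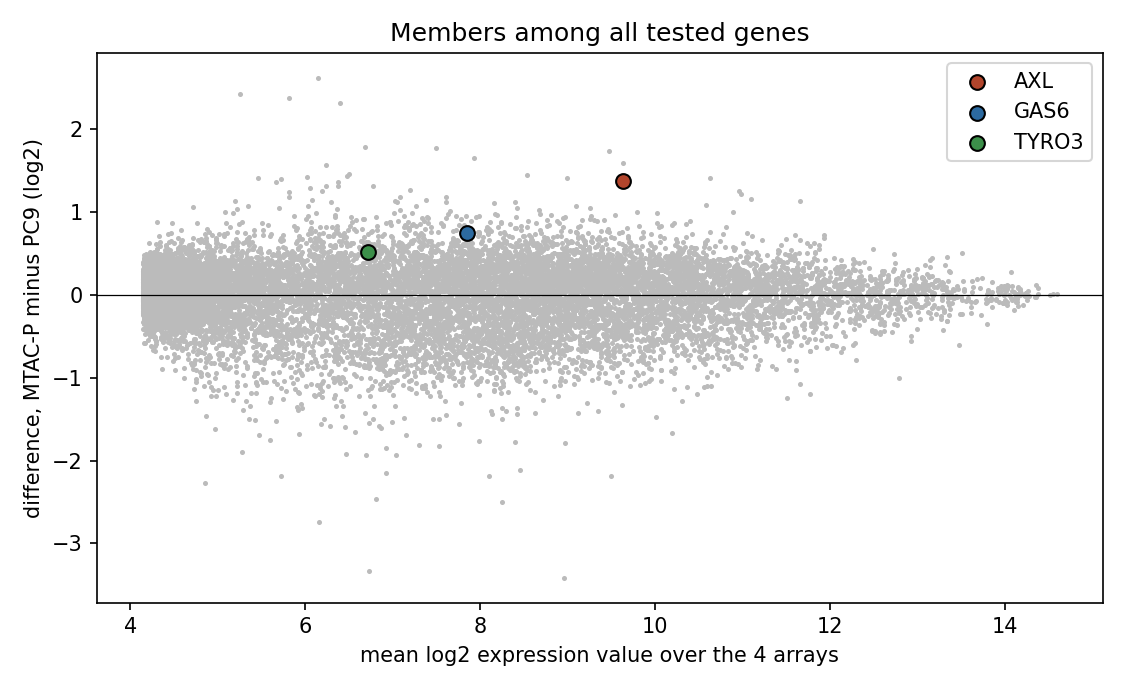
Difference MTAC-P minus PC9 (log2, vertical axis) against the mean log2 expression value over the 4 arrays (horizontal axis) for the 14970 tested genes (grey), with AXL, GAS6 and TYRO3 marked; MERTK and PROS1 were too dim to be tested. AXL, at 1.38, lies at the upper edge of the cloud, GAS6 at 0.75 and TYRO3 at 0.52 lie closer to it.

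Some control measures moved with the lines or with the replicate numbers. For ACTB, the 3' minus 5' signal on the log2 scale, which grows when RNA is degraded or copied incompletely, was 1.51 and 1.75 in MTAC-P and 1.71 and 2.49 in PC9, the highest being PC9 replicate 2, where AXL was lowest. The same measure for GAPDH was -0.090 and -0.069 in MTAC-P and -0.057 and 0.038 in PC9. The poly-A spike-in probe sets averaged 8.14 and 8.19 in MTAC-P and 7.29 and 7.60 in PC9. The background probe sets rich in G and C, given with MERTK, were also higher on both MTAC-P arrays, with a difference in means of 0.255. The part of these measures in the differences of AXL and GAS6 was not tested.

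The promoters of AXL and GAS6 are shown because these were the members with higher means in MTAC-P on both probe sets. The letters are the 250 bases before the RefSeq start site, on the gene's strand, in build GRCh38.p14. AXL lies at chr19:41218973-41219222 (plus strand) and GAS6 at chr13:113864077-113864326 (minus strand). Capitals mark matches, on either strand, to 4 short motifs linked to the regulators of AXL listed further on, namely GGGCGG (the GC box of SP factors), TGANTCA (the AP-1 site of JUN and FOS proteins), CAGGTG (an E-box of ZEB and SNAI proteins) and GGAATG (the site of TEAD proteins). No 2 matches to different motifs overlapped.
AXL: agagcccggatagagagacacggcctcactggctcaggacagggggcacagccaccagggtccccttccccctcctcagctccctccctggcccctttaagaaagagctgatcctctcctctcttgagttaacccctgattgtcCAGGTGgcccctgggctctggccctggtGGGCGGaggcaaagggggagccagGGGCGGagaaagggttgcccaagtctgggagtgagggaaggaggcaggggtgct
GAS6: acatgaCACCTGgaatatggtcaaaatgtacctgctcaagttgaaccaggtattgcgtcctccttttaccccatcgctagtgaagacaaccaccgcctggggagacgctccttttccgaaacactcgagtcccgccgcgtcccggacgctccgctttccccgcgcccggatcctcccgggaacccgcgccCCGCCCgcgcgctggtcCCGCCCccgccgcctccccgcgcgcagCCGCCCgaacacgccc

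The AXL window held 2 GC boxes, beginning 78 and 54 bases before the start, and 1 E-box at 106 bases, with 64.4% G or C. The GAS6 window held 3 GC boxes, at 60, 43 and 16 bases, and 1 E-box at 244 bases, with 66.8% G or C, against a median of 58.0% over 35116 windows of this length. A GC box was present in 42.6% of those windows, the E-box in 17.5%, the AP-1 letters in 6.57% and the TEAD letters in 11.9%. GC boxes were found in windows of all 5 TAM genes, with 3 in TYRO3, 4 in MERTK and 2 in PROS1, so they did not set AXL and GAS6 apart from MERTK and PROS1, the members near background. AXL has a second RefSeq start, whose window (chr19:41226505-41226754) held no GC box and 1 TEAD match. The deposited table does not tell transcripts of the 2 starts apart.

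The genes whose pattern over the 4 arrays was most like that of AXL, by the distance between values centred on each gene's own mean, were RGMB, TXNRD2, KLC3, IL1R2 and NRG1. RGMB, a membrane coreceptor for bone morphogenetic proteins, was the nearest at a distance of 0.26, with values of 7.35 and 6.71 in MTAC-P, against 6.44 and 4.99 in PC9. TXNRD2, a mitochondrial thioredoxin reductase, followed at 0.45, the kinesin light chain gene KLC3 at 0.52, the decoy interleukin receptor gene IL1R2 at 0.53 and NRG1, a ligand of ERBB3, at 0.53. All 5 were higher in MTAC-P, by differences of 0.88 to 1.31, and like AXL each had a higher replicate 1 than replicate 2 in both lines. Both traits follow from choosing genes by their likeness to AXL and are no separate result. These differences depended on single arrays. Without PC9 replicate 2 they were 0.59 for RGMB, 0.63 for TXNRD2, 0.30 for KLC3 and 0.32 for IL1R2, without MTAC-P replicate 1 they were 0.59 for TXNRD2, 0.34 for IL1R2 and 0.82 for NRG1, and without PC9 replicate 1 that of RGMB was 2.04 and that of KLC3 1.54, while that of IL1R2 was 1.45. Averaged over their probe sets, NRG1 differed by 0.28 and RGMB by 0.72. GAS6, at a distance of 1.42, ranked 1813 by nearness to AXL, and TYRO3, at 1.79, ranked 8833. A gene with equal values on all 4 arrays would lie at 1.705. In both GAS6 and TYRO3 replicate 2 was the higher in each line. With 4 arrays such distances describe these libraries only.

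The tested genes next to AXL on chromosome 19 in RefSeq order, 5 on each side, were examined after the members' values had been seen. Of these 10, 9 had a higher mean in MTAC-P, as did 53.8% of all tested genes, and none passed the test. Their differences ran from -0.20 for CYP2S1 to 0.58 for B9D2 (0.27 to 0.89 with 1 array left out), with a median of 0.31, and TGFB1, which encodes a growth factor, differed by 0.56. AXL exceeded each of them, which its place among the 19 highest differences of all tested genes made likely beforehand, so it is no separate result. The 8 tested neighbours of GAS6 were higher in 4 cases and lower in 4, from -0.27 to 0.62.

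Around the members, 7 lists held 97 genes of TAM biology, of which 84 were tested. By limma 0 passed the adjusted threshold, the lowest adjusted p being 0.107, and 26 had an unadjusted p under 0.05, of which 7 were higher and 19 lower in MTAC-P. That is 31.0% of the 84, against 18.9% of all tested genes. With a variance trend 3 of the 84 passed, LGALS3, HIF1A and ANXA1, all lower in MTAC-P. That setting called 77 of all 14970 tested genes, with 25 higher and 52 lower. Of the 84 list genes, 39 were higher and 45 lower, and their median difference was -0.047, against 0.031 over all tested genes.

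**Figure D4:**
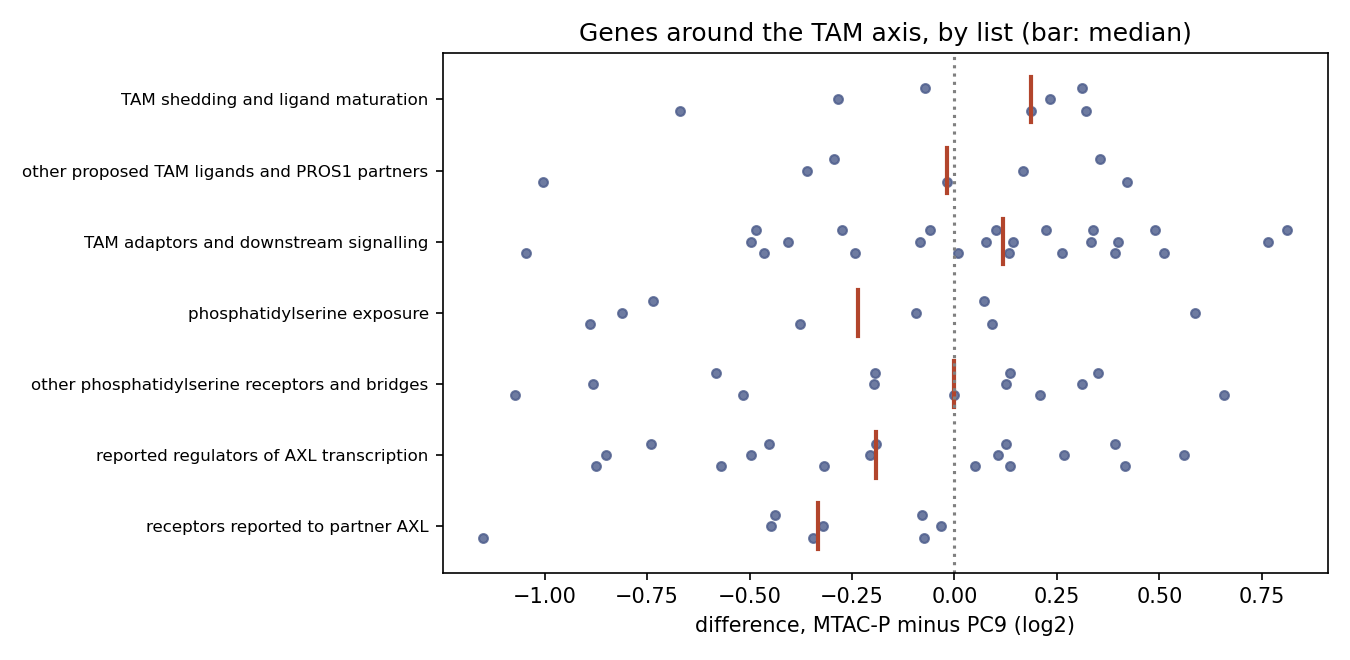
Differences MTAC-P minus PC9 (log2, horizontal axis) of the tested genes in 7 lists around the TAM axis; each point is a gene and each red bar the median of its list. The 8 receptors reported to partner AXL lie below 0, some of them close to it, and the other lists straddle it.

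The proteases ADAM10 and ADAM17, which cut TAM receptors off the cell surface, had lower means in MTAC-P. ADAM10 had values of 6.01 and 5.30 in MTAC-P, against 6.42 and 6.23 in PC9, and differed by -0.67 (SE 0.25). Its MTAC-P arrays lay below PC9 without overlap, as did 23.3% of all genes. Without MTAC-P replicate 2 ADAM10 differed by -0.32. ADAM17 differed by -0.29, but 3 of its 4 probe sets had the opposite sign. VKORC1 and VKORC1L1, which recycle vitamin K for the carboxylation that GAS6 and protein S need, differed by 0.32 and 0.31. For each, both MTAC-P arrays lay above both PC9 arrays, as for 27.1% of all genes. However, 2 of the 5 probe sets of VKORC1L1 had the opposite sign, and its difference was 0.18 without PC9 replicate 2. Of the 7 genes of shedding and ligand maturation, 4 were higher and 3 lower, with 0 and 1 at an unadjusted p under 0.05. Among all tested genes 18.9% had such a p in either direction, with 7.76% higher. The list's median of 0.19 was -0.0023 without PC9 replicate 1 and 0.0012 without MTAC-P replicate 2.

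Among 7 tested genes for other proposed ligands and partners of protein S, 3 were higher and 4 lower (median -0.019, and -0.13 to -0.090 with 1 array left out). LGALS3, which encodes galectin-3, a lectin also reported to bind MERTK, had values of 12.38 and 12.20 in MTAC-P, against 13.07 and 13.51 in PC9. The arrays did not overlap, as for 50.4% of all genes, with 23.3% below. LGALS3, named for its large difference, was 2.01-fold lower in MTAC-P (SE 0.20 on the log2 scale, limma adjusted p = 0.111). TULP1 differed by -0.36 and TUB by 0.42, both with means under 5 in each line, and PROCR, the endothelial protein C receptor, by 0.35 with overlapping arrays. Without MTAC-P replicate 2, TUB differed by 0.23 and PROCR by 0.022.

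Of the 24 tested adaptors and downstream signalling genes, 15 were higher and 9 lower (median 0.12). An unadjusted p under 0.05 was seen for 4 in each direction, against 18.9% of all tested genes, with 7.76% higher. The list's median was 0.0067 without MTAC-P replicate 2, 0.0076 without PC9 replicate 1, 0.21 without PC9 replicate 2 and 0.24 without MTAC-P replicate 1. SOCS3, a feedback inhibitor of cytokine signalling that TAM receptors can induce, had values of 6.42 and 6.52 in MTAC-P, against 5.79 and 5.51 in PC9. It was 1.76-fold higher, with a difference of 0.81 (SE 0.17, limma adjusted p = 0.113). The 2 probe sets of SOCS3, only 1 of them above the dim level, differed by 0.19 and 0.81, on average by 0.50. CRKL, an SH2 and SH3 adaptor, had values of 9.57 and 9.39 in MTAC-P, against 8.85 and 8.59 in PC9, a difference of 0.76 (SE 0.17), with 3 probe sets from 0.0085 to 0.76. VAV3, a guanine nucleotide exchange factor, had values of 5.72 and 5.89 in MTAC-P, against 6.47 and 7.23 in PC9, a difference of -1.05 (SE 0.26). The arrays did not overlap for any of these 3 genes, which were named for their large differences, and 50.4% of all genes did not overlap. The 6 probe sets of VAV3 ranged from -1.05 to 0.17, and averaged over them VAV3 differed by -0.27. Without PC9 replicate 2, VAV3 differed by -0.67. PTK2, focal adhesion kinase, differed by -0.50 (SE 0.15).

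Phosphatidylserine, the lipid to which GAS6 and protein S attach, is moved across the membrane by scramblases and flippases. Of the 8 tested genes of this group, 3 were higher and 5 lower in MTAC-P, with a median of -0.24, which was -0.38 without PC9 replicate 1, -0.12 without MTAC-P replicate 1, -0.094 without PC9 replicate 2 and -0.56 with the 50th percentile filter. ATP11B, a flippase of the P4-ATPase family, had values of 7.08 and 6.94 in MTAC-P, against 7.96 and 7.84 in PC9, a difference of -0.89 (SE 0.16, limma adjusted p = 0.107). Its 8 probe sets ranged from -0.89 to 0.27, 2 of them with the opposite sign, and averaged over them ATP11B differed by -0.27. ANO6, a calcium-activated scramblase, differed by -0.81 (SE 0.23), but by -0.51 without MTAC-P replicate 2 and by -0.37 averaged over its 6 probe sets, which ranged up to 0.16. PLSCR3 differed by 0.59 (SE 0.17), and ATP8A1, whose means lay close to the dim level, by 0.092.

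Among 13 tested genes of other phosphatidylserine receptors and bridging proteins, 6 were higher and 7 lower. Their median of -0.00019 took either sign when 1 array was left out, from -0.17 to 0.19. ANXA1, annexin A1, had values of 11.42 and 10.83 in MTAC-P, against 12.06 and 12.33 in PC9, and was 2.10-fold lower, with a difference of -1.07 (SE 0.24, limma adjusted p = 0.119). Its 5 probe sets ranged from -1.24 to 0.11. ITGAV, the integrin chain that pairs with ITGB5 in an engulfment receptor, differed by -0.88 (SE 0.26), and ITGB5 by 0.35 (SE 0.17). The 5 probe sets of ITGAV ranged from -0.88 to 0.17. Without PC9 replicate 2 ITGAV differed by -0.58, and without MTAC-P replicate 2 ITGB5 differed by 0.20. CALR, calreticulin, differed by 0.66 (SE 0.24), and without MTAC-P replicate 2 by 0.34.

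Of 17 tested genes reported to regulate AXL transcription, 8 were higher and 9 lower, with 1 and 5 at an unadjusted p under 0.05. Among all tested genes 18.9% had such a p in either direction, with 7.76% higher. FOSL1, an AP-1 subunit, had values of 10.06 and 9.55 in MTAC-P, against 9.52 and 8.97 in PC9. The lowest MTAC-P array lay just above the highest PC9 array, the difference was 0.56 (SE 0.26, limma adjusted p = 0.304), and its 6 probe sets ranged from 0.52 to 0.82. Without PC9 replicate 2 the difference of FOSL1 was 0.29. TEAD4, a DNA-binding partner of YAP and TAZ, differed by 0.42 (SE 0.17). In the other direction, SP3 differed by -0.88 (SE 0.19) and HIF1A, the oxygen-regulated factor, by -0.85 (SE 0.16). The 8 probe sets of HIF1A ranged from -0.90 to -0.53, whereas those of SP3 ranged from -0.88 to 0.25. The median of the list, -0.19, was -0.26 to -0.12 with 1 array left out and 0.051 when each gene was averaged over its probe sets.

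All 8 receptors reported to act beside AXL had lower means in MTAC-P, with a median difference of -0.33. Of all 14970 tested genes, 6917 had a lower mean. Of the 8, 2 lay below PC9 without overlap, against 23.3% of all genes. An unadjusted p under 0.05 was seen for 1, lower in MTAC-P. Among all tested genes 18.9% had such a p in either direction, with 7.76% higher. Neither share stood far from that of all genes. INSR, the insulin receptor, had values of 4.15 and 4.58 in MTAC-P, against 5.25 and 5.78 in PC9, a difference of -1.15 (SE 0.24, limma adjusted p = 0.114). Its 5 probe sets ranged from -1.15 to 0.14. PDGFRB, a platelet-derived growth factor receptor, differed by -0.45, but by -0.21 without PC9 replicate 2 and by -0.14 averaged over its probe sets. The other 6 receptors, FGFR1, MET, IGF1R, EGFR, ERBB3 and ERBB2, differed by -0.44 to -0.034. The sign turned for ERBB3 and IGF1R without MTAC-P replicate 1, for EGFR without MTAC-P replicate 2, and for ERBB2 without PC9 replicate 2 and with quantile normalization. When each gene was averaged over its probe sets, 0 of the 8 were higher and the median was -0.14, and the median was -0.10 without PC9 replicate 2.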

How the data were processed

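Total RNA of 2 MTAC-P and 2 PC9 samples was measured on 1 array each. The authors deposited log2 expression values per probe set. That they are log2 was inferred from their range, and background correction, normalization and summarization are not given in the sources used here. Software named in the submitters' processing notes is Agilent Feature Extraction 10.7, and per the labels' protocols an Agilent one-colour kit was used, whereas the probe set names are of Affymetrix type. How these relate is not settled.

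Of 49386 probe sets, 93 controls, 1327 with several symbols and 2713 unnamed here were not used for genes. Symbols from GEO's platform annotation were updated by gene identifier to GRCh38.p14, which held 14944 of the 14970 tested genes. A gene's value is that of its brightest probe set, and 3269 genes with a mean under the 25th percentile were not tested.

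MTAC-P was compared with PC9 in limma 3.58.1 (R 4.3.3; lmFit, then eBayes, 2-sided, no block), with Benjamini-Hochberg adjustment over all tested genes at 0.05. The step was tested on simulated data with arrays drawn independently. Here the deviations of same-numbered arrays had a correlation of 0.28, so the simulation does not measure how the test performs on these arrays. SE and 95% intervals are limma's. Precision is limited by having 2 arrays per line, for which the smallest exact permutation p is 0.333 (2-sided). Promoter sequences are RefSeq's (GRCh38.p14). Python 3.11.15 with matplotlib 3.10.9 drew the figures.

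Beside the members, up to 2 genes with the largest difference in each direction were named from each list, and the 5 genes nearest to AXL. The other receptors reported to act beside AXL, the neighbours of AXL and GAS6, CDH1 and EPCAM go beyond this rule and were chosen after values were seen. The members and lists were chosen with earlier results of these data known.

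Alternatives tried were a replicate block, array medians or 75th percentiles set equal, quantile-normalized values, a dim filter at the 50th percentile or none, all probe sets of a gene averaged, every probe set tested, a variance trend, a pseudocount of 16 on the linear scale, and each array left out in turn.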

Additional observations from a re-analysis of the deposited data

How the results depend on the processing

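Each of the 5 members' differences was recomputed under 14 alternatives, and all 70 values kept their sign. Many of these signs were fixed in advance. The block, the dim filters, the variance trend and the fit to every probe set reuse the brightest probe set's difference. Leaving out 1 array cannot turn the sign of a gene whose arrays do not overlap. The second probe set of TYRO3, at -0.18, entered only in the average. Of the 70 values, 2 passed the adjusted threshold, both with the replicate number as a block. There AXL stayed at 1.38 (SE 0.19, limma adjusted p = 5.85e-06) and GAS6 at 0.75 (SE 0.18, limma adjusted p = 0.00546). That block fit called 2079 genes (13.9%), with 687 higher and 1392 lower, against 3 genes without the block. Of the 84 tested genes of the lists it called 19, with 5 higher and 14 lower, among them INSR, VAV3, ANXA1, LGALS3, ATP11B and CRKL; the variance trend called 3 and each other alternative 0. Deviations of same-numbered arrays had a correlation of 0.28 across genes, but 2 pairs do not establish that the numbers pair the samples, and the labels do not say so. Under the other alternatives the adjusted p of AXL lay between 0.0657 and 0.431 and that of GAS6 between 0.0984 and 0.331. Leaving out 1 array gave 0.80 to 1.95 for AXL, 0.57 to 0.92 for GAS6, 0.14 to 0.90 for TYRO3, -0.30 to -0.092 for MERTK and -0.26 to -0.052 for PROS1. The count of genes past the threshold was 77 with a variance trend, 1 with the 50th percentile filter, 1 with every probe set tested, 1 with the pseudocount and 0 with the mean of all probe sets, and it lay between 0 and 68 when 1 array was left out; the cause was not tested. Signs turned with 1 array left out for EGFR (-0.30 to 0.14), ERBB2 (-0.084 to 0.016), ERBB3 (-0.36 to 0.21) and IGF1R (-0.65 to 0.0076), and for ERBB2 also with quantile normalization (0.011). The table holds no detection calls, so the signal at which MERTK or PROS1 is undetected is unknown.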
